A study of Mus musculus with 11 samples.

Results

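The genes described here are 37 genes that carry the signal from the insulin receptor to the mTOR complexes, taken by symbol from a list of receptors, adaptors, PI3-kinase subunits, phosphatases, kinases, transcription factors and translation regulators, with the FOXO1 target Igfbp1 as a readout. All 37 were among the 13669 genes of the count table, and 36 of them were among the 13334 genes tested. The gene left out was Pik3r2, a regulatory subunit of PI3-kinase, with 2 to 15 reads in a liver and more than 10 reads in only 3 livers, where the filter asked for over 10 reads in no fewer than 5 livers.

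The livers came from wild-type (WT) male C57BL/6J mice on regular chow, which arrived at 6 weeks of age, were acclimated for 4 weeks and received recombinant adeno-associated virus of serotype 8 by tail vein. The mice of the 5 AAV-NC livers received a vector with a negative control sequence, and those of the 6 AAV-TuD livers a tough decoy, a short transcript with binding sites that hold miR-379 and miR-541 away from their targets. The paper reports that this decoy also lowered the host transcripts lncMGC and Mirg and other miRNAs of the cluster that holds miR-379 and miR-541. Both groups carried a vector built on a mutated EGFP and the liver-specific LP1 promoter, at 5e11 genome copies per mouse. Mice fasted for 5 to 6 h were killed between 4 weeks and 3 months after the virus, and the time of these livers within that span is not given in the sources used here. RNA was read by QuantSeq, which makes 1 fragment near the 3′ end of each transcript, so that reads scaled to a common library size (CPM, counts per 1000000 reads) do not scale with transcript length and may be set side by side between genes.

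Insulin binds its receptor tyrosine kinase, which phosphorylates the IRS adaptors and so recruits PI3-kinase to make the lipid that brings PDK1 and AKT to the membrane. AKT keeps FOXO1 out of the nucleus, inhibits GSK3 and, through the TSC proteins and RHEB, releases mTORC1, which acts on the S6 kinases and the 4E-BP repressors of translation, while mTORC2 phosphorylates AKT itself. In the liver this route restrains glucose output and promotes lipid and protein synthesis, largely through protein phosphorylation, which read counts do not measure.

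The decoy is directed at the following mature miRNAs, shown from RefSeq on GRCm38.p6 with the seed (bases 2 to 8) in capitals because it sets which transcripts each can pair with; miR-379-5p lies at chr12:109709065-109709085 and miR-541-5p at chr12:109742422-109742446, both on the plus strand.
miR-379-5p: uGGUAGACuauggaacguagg
miR-541-5p: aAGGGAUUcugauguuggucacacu

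For every gene, the longest 3′ UTR in GENCODE M21 (GRCm38) was searched on the transcribed strand for matches to these seeds, with GTCTACC for miR-379-5p and AATCCCT for miR-541-5p. Of the 36 members tested, 3 held a miR-379-5p match (8.33%, beside 568 of 10928 genes tested with a 3′ UTR, 5.2%) and 6 others held a miR-541-5p match (16.7%, beside 978 genes, 8.95%). The members' 3′ UTRs were longer, with a median of 2820 bases beside 1214.5 for all genes, and per 1000 bases the members held 0.0276 matches for miR-379-5p and 0.0552 for miR-541-5p, beside 0.0324 and 0.0571 over all genes. The windows below show the match in capitals at the receptors, FOXO1, the regulatory subunit of PI3-kinase and the adaptor Irs2, the nodes of the route with a match that are described most fully.
Insr, miR-379-5p match, chr8:3153200-3153229, minus strand: ttttttccttcttctcagtacaGTCTACCt
Igf1r, miR-379-5p match, chr7:68227782-68227811, plus strand: atttaatctatgaaactttcagGTCTACCc
Foxo1, miR-379-5p match, chr3:52349143-52349172, plus strand: ggcagctaccgccctggcagtgGTCTACCt
Pik3r1, miR-541-5p match, chr13:101683268-101683297, minus strand: taacacactggtctcaaggttgAATCCCTg
Irs2, miR-541-5p match, chr8:10986617-10986646, minus strand: tttcattttggcaaagtggattAATCCCTc

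The other miR-541-5p matches were in Irs1, Pik3ca, Mlst8 and Eif4e. None of the 9 members with a match passed the edgeR test (threshold on the adjusted p 0.05): their log2 fold changes ran from -0.28 to 0.28 with a median of -0.04, beside a median of 0.04 for the 27 members without one. Neither of the genes that fell, Rps6kb1 and Eif4ebp2, held a match to either seed, and Mtor and Rictor held none either. Seeds of the other miRNAs of the cluster, some of which the paper reports as lowered, were not searched for. The paper names RICTOR among known targets of the cluster and reports more of its protein in decoy livers. A match of 7 letters is a description of sequence and not a measured site.

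Libraries held 8148531 to 12043959 reads. Transcripts of the major urinary protein genes took 38.6% of the reads of AAV-NC liver 7, 30.9% and 28.4% of AAV-TuD livers 3 and 5 and between 8.09% and 18.7% of the others, and the TMM scaling factors ran from 0.667 to 1.24. Hepatocyte markers were present throughout, with 0 of 7 higher and 1 lower, Hnf4a (log2 fold change -0.38, edgeR adjusted p = 0.0150). Their summed level was 33282 to 39641 CPM in AAV-NC and 41751 to 47743 CPM in AAV-TuD, higher in AAV-TuD without overlap. Most of that sum was Alb, at a mean of 21096 CPM in AAV-NC and 28044 CPM in AAV-TuD, which did not pass (log2 fold change 0.41, edgeR adjusted p = 0.0805). The median log2 fold change of the 7 markers was -0.17, with Alb and Ttr above 0 and Apoa1, Serpina1a, Cps1, Tat and Hnf4a below. None of the 6 skeletal muscle and adipose markers was in the table. Stellate (6 of 6), cholangiocyte (4 of 4 tested, of 5), macrophage (5 of 7) and leukocyte (4 of 5 tested, of 9) markers passed the test as higher in AAV-TuD and sinusoidal endothelial markers did not (0 of 6). No pair of libraries agreed within sampling noise (lowest chi-square per degree of freedom 7.11), and each library was counted as 1 replicate.

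For most of the route the estimated difference in mRNA was small. With edgeR's quasi-likelihood test and Benjamini-Hochberg adjustment over all genes, 0 members rose, 2 fell and 34 did not pass (2 of 36, 5.56%), where 11.6% of all genes passed. Among all genes 966 rose (7.24%) and 577 fell (4.33%). The members' median log2 fold change was 0.03, beside -0.0024 for all genes, with 20 members above 0 and 16 below. Of the members, 27 (75.0%) had a log2 fold change of at most 0.25 in size, beside 63.1% of all genes, and for 24 members the 95% confidence interval lay within 0.5 of 0 on the log2 scale. Without the adjustment 7 members (19.4%) had a p under 0.05, beside 26.3% of all genes. DESeq2 called 1 member as rising, Inpp5d, and the same 2 as falling, beside 13.6% of all genes. In 1 member, Rps6kb1, the ranges of the groups did not overlap as lower (2.78%), beside 7.39% of all genes, 4.11% higher and 3.28% lower.

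**Figure D1:**
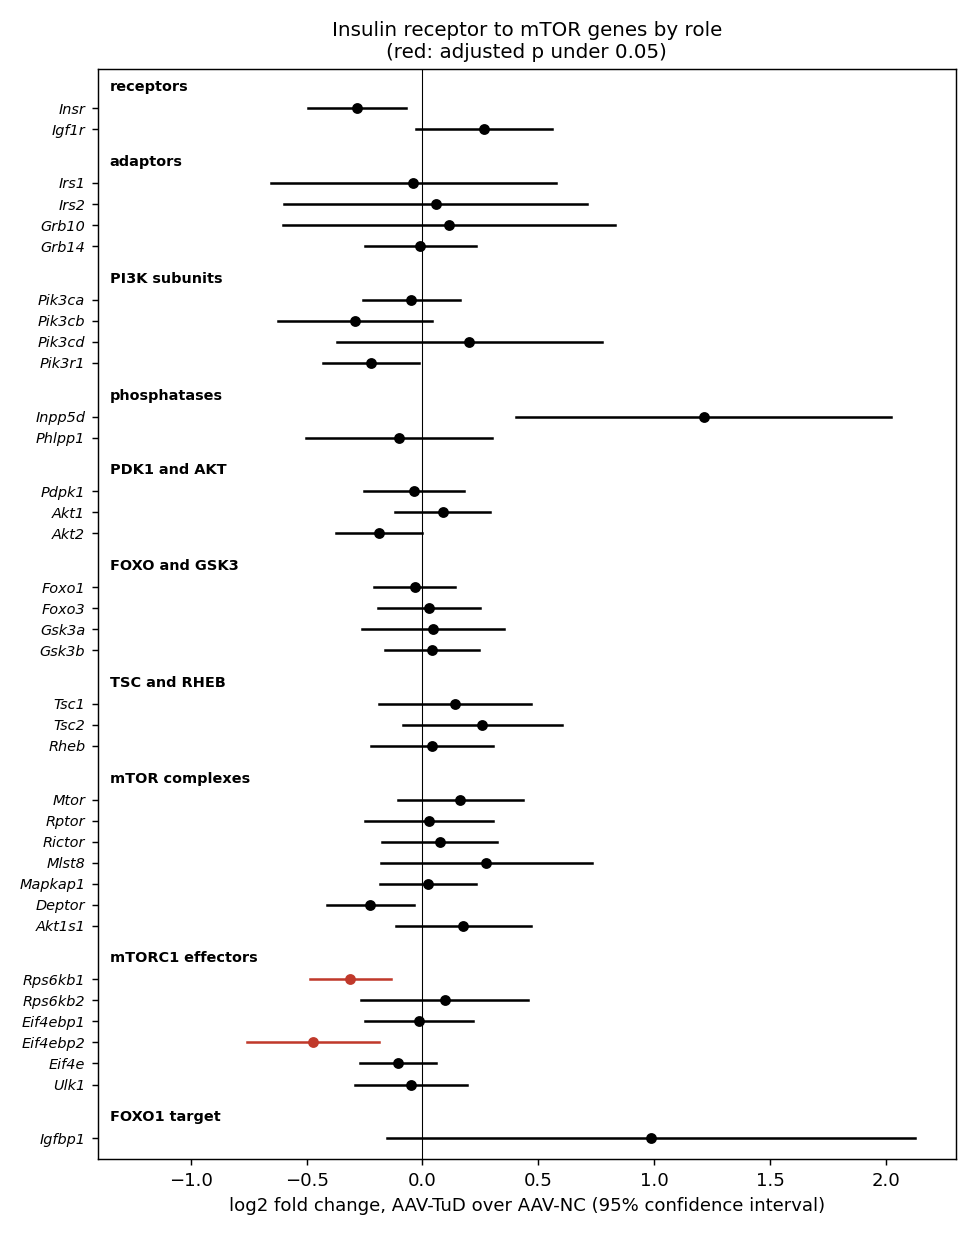
Log2 fold change of the 36 members tested, AAV-TuD (n = 6) over AAV-NC (n = 5), ordered by role; points are edgeR estimates and lines 95% confidence intervals. The intervals of Eif4ebp2 and Rps6kb1, in red, lie below 0 and these genes passed the adjusted test, while Inpp5d and Igfbp1 have the widest intervals and estimates of 1.21 and 0.99.

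At the top of the route, Insr, the insulin receptor, was read at 44.0, 51.6, 45.2, 36.4 and 40.4 CPM in AAV-NC livers 1, 2, 6, 7 and 8, and from 31.5 through a median of 35.6 to 40.8 CPM in the 6 AAV-TuD livers. The groups overlapped, with AAV-NC livers 7 and 8 inside the range of the decoy livers. Its log2 fold change of -0.28 (SE 0.10, 95% confidence interval -0.49 to -0.07) did not pass (edgeR adjusted p = 0.0804). It passed only when AAV-NC liver 7, the liver with the largest share of urinary protein reads, was left out (log2 fold change -0.34, edgeR adjusted p = 0.0473).

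Igf1r, the receptor of insulin-like growth factor 1, was read at a lower level, 6.57, 6.17, 9.41, 6.01 and 6.23 CPM in the same order of AAV-NC livers and 7.22, 8.37 and 9.77 CPM as lowest, median and highest of AAV-TuD. AAV-NC liver 6 lay among the decoy livers and the other 4 lay below all of them. Its log2 fold change was 0.27 (SE 0.14, edgeR adjusted p = 0.236), and without AAV-NC liver 6 it was 0.41 (edgeR adjusted p = 0.0544). Within each liver, reads of Insr outnumbered those of Igf1r by a median ratio of 6.44 in AAV-NC and 4.15 in AAV-TuD, a difference in mean log2 ratio of -0.56 (SE 0.18) that gave p = 0.0152 in a two-sided exact permutation test over all splits of the livers and 0.0833 after adjustment over the 11 ratios computed.

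Among the adaptors, Irs2, whose transcript insulin represses through FOXO1, was read at 18.7, 16.7, 22.2, 12.6 and 15.1 CPM in AAV-NC, and AAV-TuD ran from 7.42 through a median of 16.4 to 35.0 CPM. The decoy livers lay on both sides of the AAV-NC range, with livers 3 and 9 below it, liver 11 above it and liver 10 level with the highest AAV-NC liver. On the log2 scale the difference was 0.06 (SE 0.31, 95% confidence interval -0.60 to 0.71, edgeR adjusted p = 0.934), and its sign depended on single livers, with -0.25 without AAV-TuD liver 11, -0.01 without AAV-TuD liver 10 and -0.03 without AAV-NC liver 7.

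Irs1 was near the floor of the assay, with a mean of 9.73 reads a liver and 0.995 ± 0.292 CPM (SD, n = 5) in AAV-NC against 0.968 ± 0.297 (n = 6) in AAV-TuD, and at this depth its interval ran from -0.65 to 0.58 on the log2 scale. The 3′ UTR of Irs1 overlaps Gm9747 on the other strand, so that, with the strand setting not given, its reads are uncertain. Grb14, an adaptor that binds the active receptor and inhibits it, was read at 28.5 ± 4.25 and 28.3 ± 3.76 CPM in the 2 groups, a log2 fold change of -0.01 (SE 0.11). Grb10, its relative with the same role, was read at only 2.96 ± 1.88 and 3.30 ± 1.08 CPM, and AAV-NC liver 8, at 6.03 CPM, was its highest.

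Among the PI3-kinase genes, Pik3r1, the main regulatory subunit, was read at 80.5, 77.2, 88.2, 75.1 and 92.4 CPM in AAV-NC and from 60.4 through a median of 69.4 to 87.2 CPM in AAV-TuD. AAV-TuD liver 3 lay within the AAV-NC range, liver 9 too, and the other decoy livers lay below it. The log2 fold change of -0.22 (SE 0.10) did not pass (edgeR adjusted p = 0.162). Without AAV-TuD liver 3 it was -0.29 and passed (edgeR adjusted p = 0.0410).

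The catalytic subunits were read at lower levels. Pik3ca, the alpha subunit on which hepatic insulin action chiefly rests, had a log2 fold change of -0.05 (SE 0.10, 95% confidence interval -0.26 to 0.16). Pik3cb, the beta subunit, was read at 7.27 ± 0.401 CPM in AAV-NC and 5.90 ± 1.31 in AAV-TuD, where liver 5 stood at 3.40 CPM, and its log2 fold change of -0.29 (SE 0.16) did not pass (edgeR adjusted p = 0.258). Pik3cd, the delta subunit found mainly in leukocytes, was at 2.38 ± 1.14 and 2.75 ± 0.570 CPM (log2 fold change 0.20, SE 0.27).

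Inpp5d, the phosphatase SHIP1 of blood cells, which removes a phosphate from the lipid product of PI3-kinase, had the highest log2 fold change among the members. It was read at 1.31, 0.504, 0.553, 0.125 and 1.85 CPM in AAV-NC livers 1, 2, 6, 7 and 8 and from 1.73 through a median of 2.08 to 2.76 CPM in AAV-TuD. The groups met in AAV-NC liver 8, which held 19 reads, and the other AAV-NC livers lay below every decoy liver, with 1 to 11 reads. Its log2 fold change of 1.21 (SE 0.38, 95% confidence interval 0.40 to 2.02) missed the threshold (edgeR adjusted p = 0.0505). It passed under DESeq2 (adjusted p = 0.0155), limma-voom with quality weights (0.0214), upper-quartile factors (0.0490), library size alone (0.0171) and without the urinary protein genes (0.0498), and when AAV-TuD liver 3 (0.0483) or AAV-NC liver 8 (log2 fold change 1.73, adjusted p = 0.0114) was left out.

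Of the tested markers, 4 of 5 for leukocytes and 5 of 7 for macrophages also rose in AAV-TuD. Summed over the leukocyte list, levels were 31.3 to 42.2 CPM in AAV-NC and 37.8 to 84.6 CPM in AAV-TuD, and the macrophage list summed to 85.9 to 127 and 105 to 287 CPM. AAV-NC liver 8 had the highest leukocyte sum of its group, 42.2 CPM, and the highest Inpp5d level of its group, 1.85 CPM. AAV-NC liver 7 had the highest macrophage sum of its group, 127 CPM, and the lowest Inpp5d level, 0.125 CPM from 1 read. AAV-TuD liver 3 had the lowest sums of its group, 37.8 and 105 CPM, both within the AAV-NC range, with Inpp5d at 1.78 CPM. The median log2 fold change of the tested markers was 0.86 for leukocytes, where Coro1a, Itgam, Cd3e and Cd79a were not tested, and 0.97 for macrophages. Their part in the values of Inpp5d was not tested, and in whole liver more cells of a type and more RNA per cell cannot be told apart. Phlpp1, a phosphatase that acts on AKT, had a log2 fold change of -0.10 (SE 0.19), with its highest value, 10.3 CPM, in AAV-TuD liver 10.

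**Figure D2:**
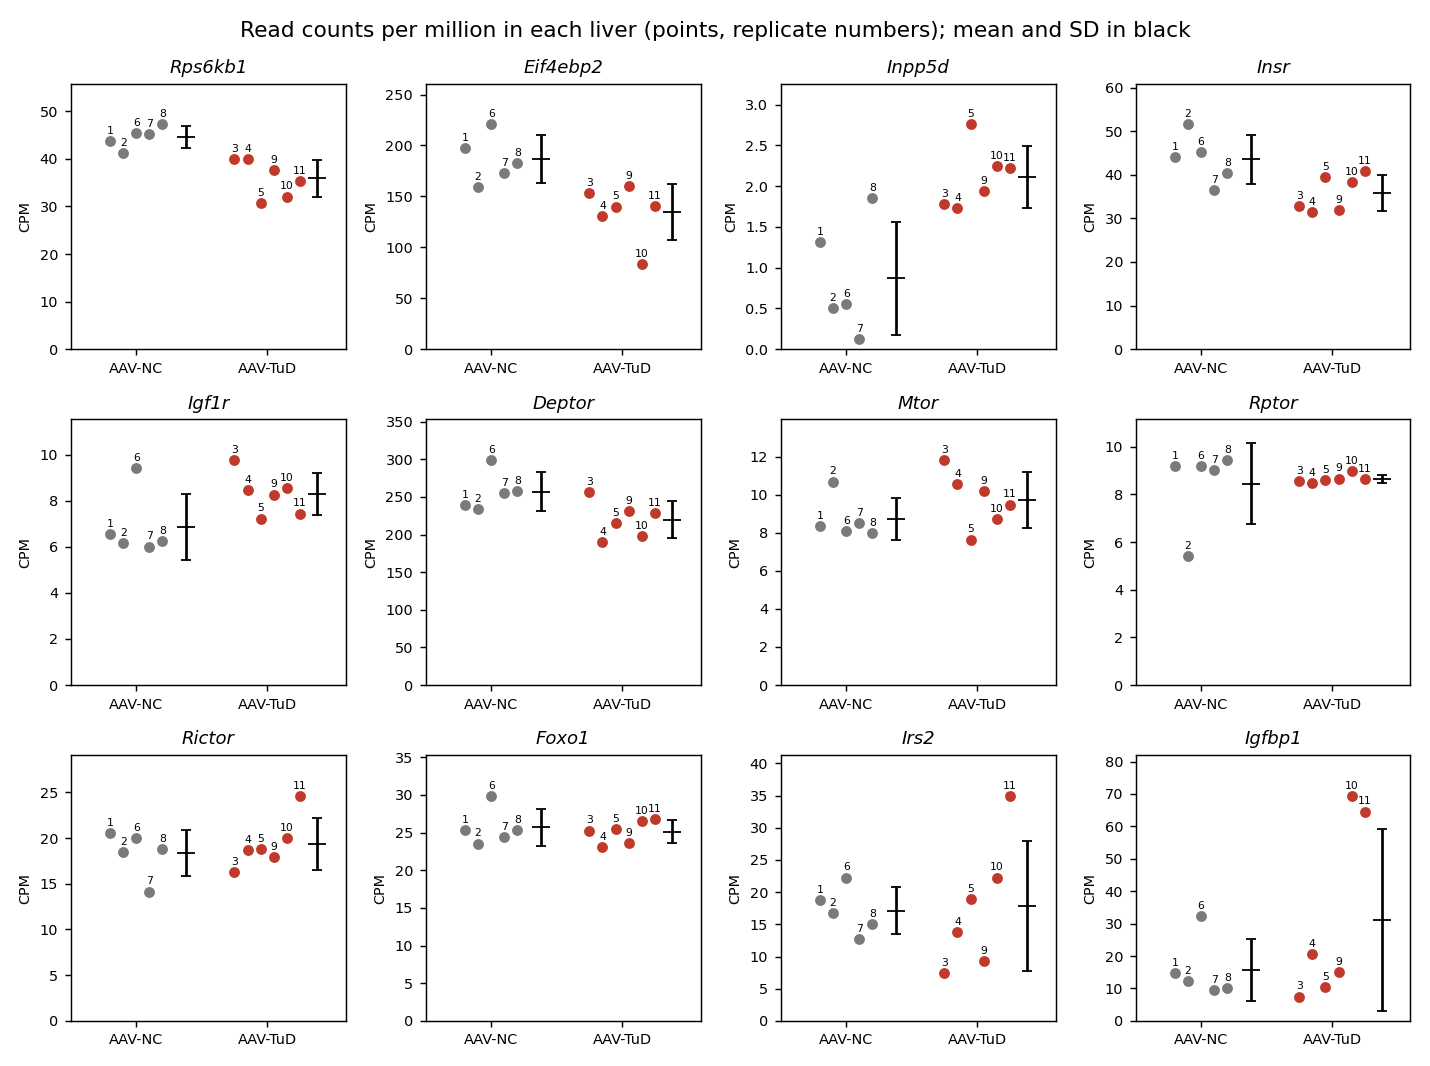
CPM (linear axis from 0) of 12 members in each of the 5 AAV-NC livers (grey) and 6 AAV-TuD livers (red), with replicate numbers; black bars are the mean and SD. Rps6kb1 separates the groups (41.3 CPM is the lowest AAV-NC liver and 39.9 the highest AAV-TuD liver), Eif4ebp2 is lowest in AAV-TuD liver 10 at 83.6, and Igfbp1 is highest in AAV-TuD livers 10 and 11.

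PDK1 and AKT, the kinases that PI3-kinase recruits, did not pass the test. Pdpk1, which phosphorylates AKT in its activation loop, had a log2 fold change of -0.04 (SE 0.10). Akt1 was read at 22.4, 19.6, 27.3, 22.0 and 21.5 CPM in AAV-NC and from 22.0 through a median of 23.5 to 27.6 CPM in AAV-TuD, largely the same span. Its log2 fold change was 0.09 (SE 0.10, 95% confidence interval -0.12 to 0.29, edgeR adjusted p = 0.619).

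Akt2, the AKT on which insulin action in liver mainly depends, was read higher than Akt1, at 43.2, 36.1, 40.6, 39.1 and 40.5 CPM in AAV-NC, and from 29.3 through a median of 35.3 to 39.9 CPM in AAV-TuD. AAV-TuD livers 4, 9, 10 and 11 lay below the AAV-NC range and livers 3 and 5 within it. The log2 fold change of -0.19 (SE 0.09, 95% confidence interval -0.37 to -0.00196) did not pass (edgeR adjusted p = 0.185). The ratio of Akt1 to Akt2 reads had a median of 0.544 in AAV-NC and 0.673 in AAV-TuD (difference in mean log2 ratio 0.28, SE 0.12, two-sided exact permutation p = 0.0584, adjusted p = 0.161).

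Foxo1, the transcription factor that AKT keeps out of the nucleus and that drives genes of glucose production, was read at 25.3, 23.5, 29.9, 24.4 and 25.3 CPM in AAV-NC and from 23.1 through a median of 25.4 to 26.8 CPM in AAV-TuD. AAV-NC liver 6 stood above every other liver and the remaining livers shared 1 range. A log2 fold change of -0.03 had an SE of 0.08, and its 95% confidence interval of -0.21 to 0.14 was among the narrowest of the members (edgeR adjusted p = 0.847). Foxo3, its relative, had a log2 fold change of 0.03 (SE 0.10), Gsk3a, whose 3′ UTR overlaps the antisense gene 9130221H12Rik with the same limit, 0.05 (SE 0.14) and Gsk3b 0.04 (SE 0.10), the last at 70.4 ± 3.88 CPM in AAV-NC and 72.5 ± 11.3 in AAV-TuD, where liver 10 stood at 94.5 CPM.

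The TSC proteins, which hold RHEB and so mTORC1 in check, did not pass the test. Tsc1 had a log2 fold change of 0.14 (SE 0.15) and Tsc2 one of 0.26 (SE 0.16, edgeR adjusted p = 0.337), at only 2.78 ± 0.336 CPM in AAV-NC and 3.34 ± 0.401 in AAV-TuD. Rheb, the small GTPase that switches on mTORC1, was at 11.6 ± 1.10 and 11.9 ± 2.01 CPM. The 3′ UTR of Tsc2 overlaps Pkd1 on the other strand, and since the strand setting of the counting is not given in the sources used here, reads of the pair cannot be told apart.

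Mtor, the kinase shared by both complexes, was read at 8.36, 10.7, 8.08, 8.51 and 7.98 CPM in AAV-NC and from 7.65 through a median of 9.85 to 11.8 CPM in AAV-TuD. The decoy livers spanned the whole AAV-NC range. The log2 fold change was 0.16 (SE 0.13, 95% confidence interval -0.11 to 0.43, edgeR adjusted p = 0.454).

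Rictor, the subunit that defines mTORC2, was read at 20.5, 18.5, 20.0, 14.1 and 18.8 CPM in AAV-NC and from 16.2 through a median of 18.7 to 24.6 CPM in AAV-TuD. Only AAV-TuD liver 11 lay above the AAV-NC livers, and the medians of the groups were nearly equal. Rictor's log2 fold change was 0.07 (SE 0.12, edgeR adjusted p = 0.749), with a 95% confidence interval from -0.18 to 0.32.

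Rptor, the subunit that defines mTORC1, was the steadiest member in the decoy livers, at 8.65 ± 0.171 CPM, against 8.45 ± 1.70 in AAV-NC, where liver 2 stood apart at 5.41 CPM. At 81 to 107 reads in a decoy liver, counting noise alone gives a wider spread, so the steadiness is not read as a trait of Rptor. Its log2 fold change was 0.03 (SE 0.13), and the ratio of Rptor to Rictor reads had medians of 0.460 and 0.457 (difference in mean log2 ratio -0.01, SE 0.20). Mlst8, a subunit of both complexes whose 3′ UTR overlaps Bricd5 on the other strand, had a log2 fold change of 0.28 (SE 0.21), and Mapkap1, the SIN1 subunit of mTORC2, one of 0.02 (SE 0.10).

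Of the mTOR inhibitors, Deptor, which binds both complexes, was read at the highest level of all members, 239, 233, 299, 255 and 257 CPM in AAV-NC and from 189 through a median of 222 to 256 CPM in AAV-TuD. AAV-TuD liver 3 lay well inside the AAV-NC range, and AAV-NC livers 1, 2 and 7 lay inside the range of the decoy livers. The log2 fold change of -0.22 (SE 0.09) did not pass (edgeR adjusted p = 0.113), and it passed at -0.27 when AAV-TuD liver 3 was left out (edgeR adjusted p = 0.0486). Akt1s1, the mTORC1 inhibitor PRAS40, had a log2 fold change of 0.18 (SE 0.14).

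The members that fell both act downstream of mTORC1. Rps6kb1, the S6 kinase 1 that phosphorylates ribosomal protein S6 (ENSMUSG00000020516, chr11:86498871-86544805, minus strand, GRCm38), was read at 43.8, 41.3, 45.5, 45.2 and 47.3 CPM in AAV-NC livers 1, 2, 6, 7 and 8, and from 30.7 through a median of 36.5 to 39.9 CPM in AAV-TuD. Every decoy liver lay below every control liver. It fell by 19.4%, from 44.6 ± 2.24 CPM (SD, n = 5) to 35.9 ± 3.93 (n = 6), a log2 fold change of -0.31 (SE 0.08, 95% confidence interval -0.49 to -0.14, edgeR adjusted p = 0.0230).

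This call rested on a margin that single livers decided. It was lost when AAV-NC liver 8 (edgeR adjusted p = 0.0544) or AAV-TuD liver 10 (0.0535) was left out, while the log2 fold change stayed between -0.34 and -0.27 over the 11 fits with 1 liver left out. Its 3′ UTR overlaps Rnft1 on the other strand, a gene read at 8.83 ± 0.918 CPM in AAV-NC and 7.84 ± 1.32 in AAV-TuD, and without the strand setting a share of its reads may belong to that gene. Rps6kb2, the second S6 kinase, was at 5.78 ± 0.636 and 6.19 ± 1.48 CPM (log2 fold change 0.10, SE 0.17), and its 3′ UTR overlaps Coro1b and Ptprcap on the other strand, with the same limit. The difference between the groups in the log2 ratio of Rps6kb1 to Rps6kb2 was -0.38 (SE 0.21, two-sided exact permutation p = 0.141).

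Eif4ebp2, a repressor that binds the cap-binding protein eIF4E until mTORC1 phosphorylates it (ENSMUSG00000020091, chr10:61428491-61452661, minus strand, GRCm38), was read at 197, 159, 221, 173 and 183 CPM in AAV-NC and from 83.6 through a median of 140 to 160 CPM in AAV-TuD. The groups touched, with AAV-TuD liver 9 just above AAV-NC liver 2, and AAV-TuD liver 10 was far below the rest. It fell by 27.9%, from 187 ± 23.6 CPM to 135 ± 27.1, a log2 fold change of -0.47 (SE 0.13, 95% confidence interval -0.76 to -0.19, edgeR adjusted p = 0.0328). The call was lost without AAV-NC liver 1 (edgeR adjusted p = 0.0703), 6 (0.0861) or 8 (0.0516) and without AAV-TuD liver 4 (0.0729) or 11 (0.0536). It held without AAV-TuD liver 10, at a log2 fold change of -0.36.

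Eif4ebp1, the other 4E-BP of the list, was read at 12.1, 13.1, 16.9, 16.5 and 15.8 CPM in AAV-NC and from 12.7 through a median of 15.0 to 16.8 CPM in AAV-TuD. The ranges were nearly the same. Its log2 fold change was -0.02 (SE 0.11, 95% confidence interval -0.25 to 0.22, edgeR adjusted p = 0.951). Eif4e, the cap-binding protein itself, had a log2 fold change of -0.11 (SE 0.08), and Ulk1, the autophagy kinase that mTORC1 inhibits, one of -0.05 (SE 0.11).

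The balance of the 4E-BP transcripts differed between the groups. With Eif4ebp1 nearly unchanged (log2 fold change -0.02), this difference restates the fall of Eif4ebp2 in the same livers and is not a separate result. The log2 ratio of Eif4ebp1 to Eif4ebp2 reads, which does not depend on how libraries are scaled, was -4.03, -3.60, -3.70, -3.38 and -3.53 in the AAV-NC livers and ran from -3.37 to -2.72 in AAV-TuD. Every decoy liver lay above every control liver, though AAV-TuD liver 9 and AAV-NC liver 7 were close. The difference in mean log2 ratio was 0.49 (SE 0.14), with p = 0.00216 in a two-sided exact permutation test, the smallest p that the splits allow, and an adjusted p of 0.0238 over the 11 ratios. With any 1 liver left out the difference was 0.39 to 0.55 and the adjusted p 0.0524 to 0.0873, the smallest that the fewer splits allow for a single ratio. None of the other 10 ratios passed, and their adjusted p-values ran from 0.0833 to 0.942.

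**Figure D3:**
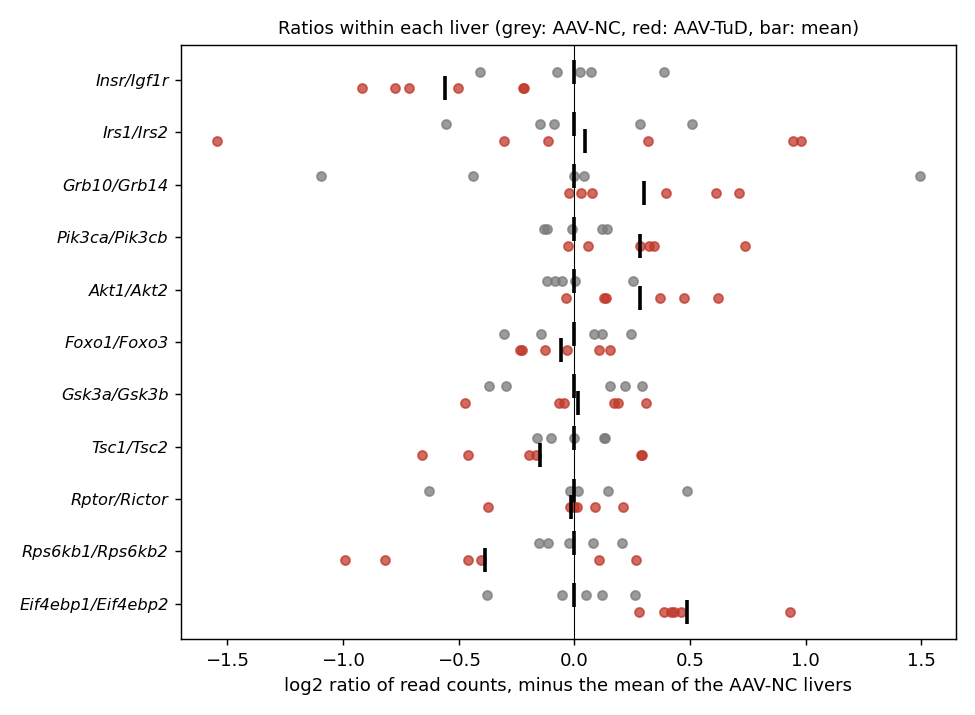
Log2 ratios of read counts for 11 pairs of related members within each liver, each pair centred on the mean of its AAV-NC livers; points are livers (grey AAV-NC, n = 5, red AAV-TuD, n = 6) and black bars group means. Eif4ebp1/Eif4ebp2 is the pair whose groups do not overlap (difference 0.49), Insr/Igf1r differs by -0.56 with overlapping groups, and Rptor/Rictor by -0.01.

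Igfbp1, a secreted binding protein whose transcript FOXO1 raises and insulin lowers, was the most variable member. It was read at 14.7, 12.2, 32.4, 9.51 and 10.1 CPM in AAV-NC and from 7.51 through a median of 17.8 to 69.4 CPM in AAV-TuD. AAV-TuD livers 10 and 11, at 69.4 and 64.6 CPM, stood far above the rest, and the other 4 decoy livers lay within or below the AAV-NC range. Its estimate of 0.99 on the log2 scale had an SE of 0.54 and a 95% confidence interval of -0.15 to 2.12, and it did not pass (edgeR adjusted p = 0.261). It was 0.59 without AAV-TuD liver 10, 0.65 without AAV-TuD liver 11, 1.43 without AAV-NC liver 6 and 0.61 with limma-voom, and none of these passed (adjusted p from 0.135 to 0.536). The same livers 10 and 11 were the highest of the decoy livers for Irs2, at 22.2 and 35.0 CPM.

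The size of each difference also depended on scaling. When TMM factors were dropped and libraries scaled by size alone, the median over all genes moved from -0.0024 to 0.23, and 1386 genes rose (10.4%) while 71 fell (0.532%). The estimates of Rps6kb1 and Eif4ebp2 became -0.08 and -0.26 and no longer passed (edgeR adjusted p = 0.815 and 0.355), and relative to the shifted median they were -0.31 and -0.50. Under that scaling Inpp5d (1.41, adjusted p = 0.0171) and Igfbp1 (1.26, adjusted p = 0.0485) passed as higher, and 30 of 36 members were above 0.

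**Figure D4:**
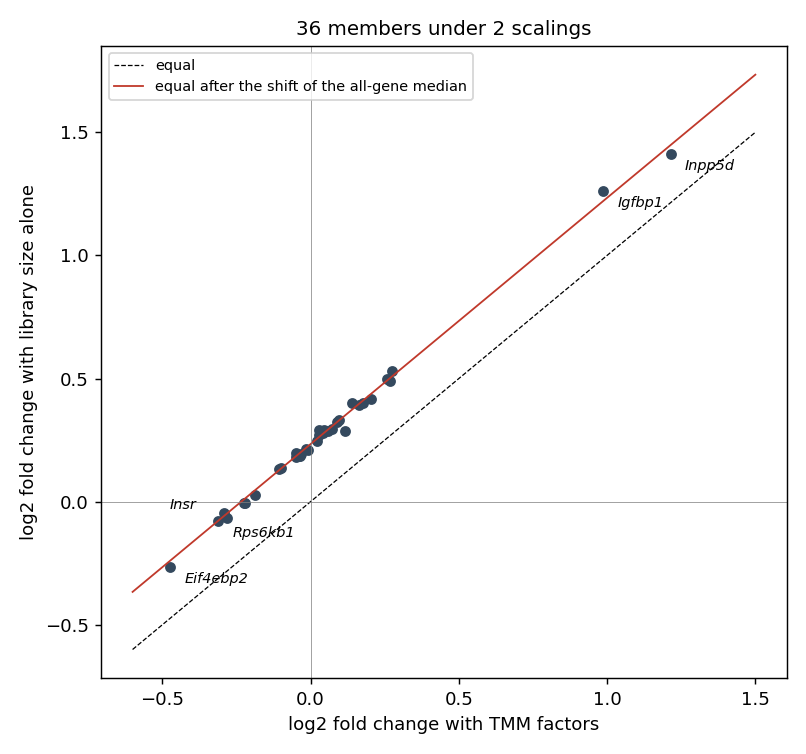
Log2 fold changes of the 36 members with TMM factors (horizontal axis) and with library size alone (vertical axis); each point is a gene, the dashed line marks equal values and the red line equal values after the shift of the median of all genes. Points follow the red line, so that Rps6kb1 moves from -0.31 to -0.08 and Eif4ebp2 from -0.47 to -0.26.

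The other genes of the route were taken from 7 lists of 136 genes, of which 119 were tested. Of these, 6 rose and 9 fell, with a median log2 fold change of -0.02. Among all genes 11.6% passed in either direction, 7.24% as higher and 4.33% as lower. Of the 15 genes that passed, 7 did so in all 11 fits with 1 liver left out, and with library size alone the 6 that rose still passed and none of the 9 that fell did.

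Of 22 further genes close to the insulin receptor, 1 rose and 2 fell (median -0.03), where 7.24% of all genes rose and 4.33% fell. Gab2, a docking adaptor, ran from 1.89 to 2.63 CPM in AAV-NC and from 2.35 to 4.83 in AAV-TuD and rose with a log2 fold change of 0.82 (SE 0.20, edgeR adjusted p = 0.0151). Ceacam1, which promotes insulin clearance by the liver, ran from 149 to 182 CPM in AAV-NC and from 109 to 147 in AAV-TuD and fell with a log2 fold change of -0.32 (SE 0.08, edgeR adjusted p = 0.0235). Sos1, an exchange factor that links receptors to RAS, had one of -0.34 (SE 0.10, edgeR adjusted p = 0.0349). Ceacam1 was lost without AAV-NC liver 1 or 2 or AAV-TuD liver 4 or 9 (adjusted p up to 0.0633), and Sos1 was kept only without AAV-NC liver 8 or AAV-TuD liver 3 or 5 (adjusted p up to 0.0850 in the others).

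Of 8 insulin-like growth factor genes, 0 rose and 2 fell (median -0.19), where 7.24% of all genes rose and 4.33% fell. Igfbp2, a binding protein made in the liver, ran from 224 to 248 CPM in AAV-NC and from 127 to 215 in AAV-TuD, with no overlap, and fell with a log2 fold change of -0.36 (SE 0.11, edgeR adjusted p = 0.0488). Igfbp5 fell with one of -0.56 (SE 0.17, edgeR adjusted p = 0.0466). Both were near the threshold: Igfbp2 was kept only without AAV-TuD liver 3, 9 or 11, with an adjusted p up to 0.113 in the other fits, and Igfbp5 only without AAV-NC liver 6 or AAV-TuD liver 9, with one up to 0.0954. None of 10 further PI3-kinase and lipid phosphatase genes (median 0.02) and none of 19 further AKT pathway genes (median 0.03) passed.

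Among 23 tested regulators of the mTOR complexes, 2 rose and 1 fell (median -0.03), where 7.24% of all genes rose and 4.33% fell. Ddit4l, an inhibitor of mTORC1 signaling, ran from 1.26 to 2.55 CPM in AAV-NC and from 2.97 to 6.90 in AAV-TuD, and rose with a log2 fold change of 1.51 (SE 0.24, edgeR adjusted p = 0.00142). Castor2, of the family of arginine sensors that bear on mTORC1, ran from 0.876 to 2.13 CPM and from 2.19 to 3.36, and rose by 1.03 on the log2 scale (SE 0.25, edgeR adjusted p = 0.0144). Prkaa2, a catalytic subunit of the AMP-activated kinase, which restrains mTORC1, ran from 35.8 to 46.3 CPM and from 17.5 to 34.7 and fell with a log2 fold change of -0.69 (SE 0.14, edgeR adjusted p = 0.00499). In these 3 genes the groups did not overlap, and each passed in all 11 fits with 1 liver left out.

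Of 22 further mTORC1 effector genes, 1 rose and 4 fell (median -0.09), where 7.24% of all genes rose and 4.33% fell. Rps6, the ribosomal protein that the S6 kinases phosphorylate, ran from 282 to 343 CPM in AAV-NC and from 218 to 251 in AAV-TuD and fell with a log2 fold change of -0.36 (SE 0.07, edgeR adjusted p = 0.00544), although it has processed copies in the genome with which it may share reads. Ulk2, an autophagy kinase, fell with one of -0.37 (SE 0.09, edgeR adjusted p = 0.0117) and Pdcd4, a repressor of translation that S6 kinase marks for degradation, with one of -0.41 (SE 0.10, edgeR adjusted p = 0.0168), and these 3 passed in all 11 fits with 1 liver left out. Rps6 is also a ribosomal protein gene, and the paper lists the ribosome first among the pathways lowered in its RNA-seq. Its fall is therefore not particular to this route.

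The other effectors were close to the threshold. Lpin1, a lipid phosphatase whose entry into the nucleus mTORC1 controls and which stood on the list and is named here after its values were seen, fell with a log2 fold change of -0.89 (SE 0.27, edgeR adjusted p = 0.0458), kept only without AAV-NC liver 2 or 8 or AAV-TuD liver 3 (adjusted p up to 0.119 in the others). Atg101, a subunit of the ULK complex, rose with one of 0.31 (SE 0.09, edgeR adjusted p = 0.0385), kept only without AAV-NC liver 2 or AAV-TuD liver 3 (adjusted p up to 0.0926 in the others).

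Of 17 further FOXO1 and insulin target genes, 2 rose and 0 fell (median 0.05), where 7.24% of all genes rose and 4.33% fell. Txnip, which restrains glucose uptake, ran from 11.5 to 23.8 CPM in AAV-NC and from 23.6 to 31.4 in AAV-TuD and rose with a log2 fold change of 0.48 (SE 0.15, edgeR adjusted p = 0.0428). Pdk4, a kinase that inhibits pyruvate dehydrogenase and rises in fasting, was at 0.376 to 1.64 CPM and 1.55 to 2.19 CPM and rose with one of 0.94 (SE 0.28, edgeR adjusted p = 0.0443). Txnip was kept without AAV-NC liver 2, 6 or 8 or AAV-TuD liver 10 and lost in the other fits (adjusted p up to 0.0943), and Pdk4 was kept only without AAV-NC liver 2 or AAV-TuD liver 3 (up to 0.0925 in the others).

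**Figure D5:**
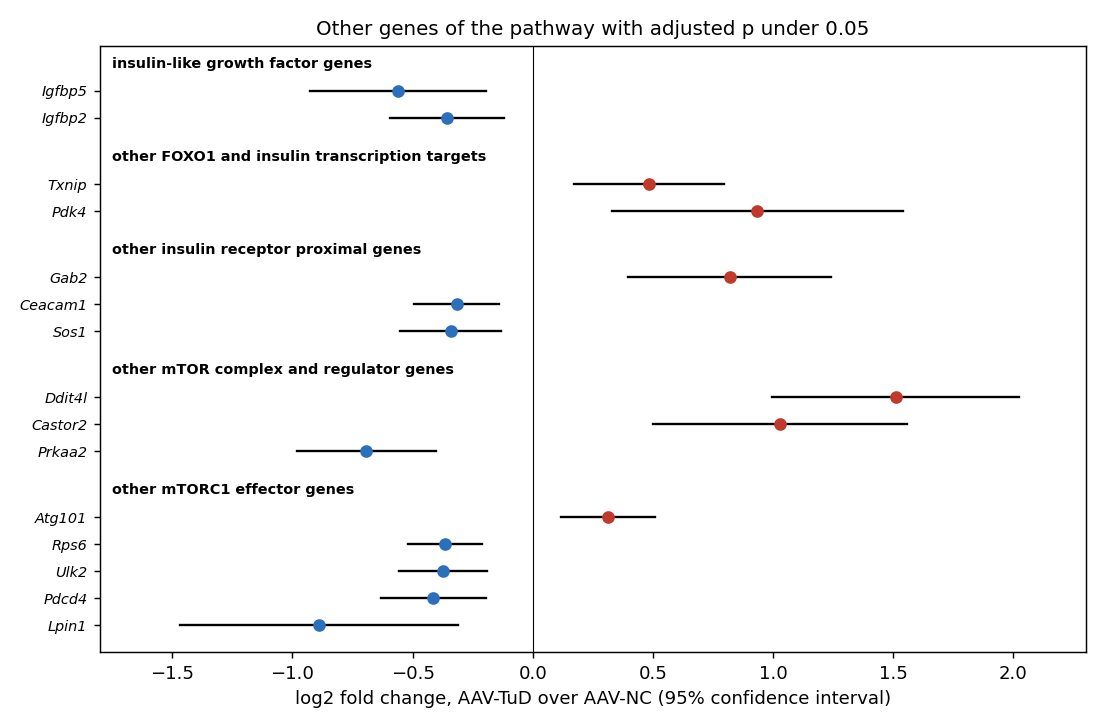
Log2 fold changes with 95% confidence intervals of the 15 further genes of the route that passed the adjusted edgeR test, grouped by list (red higher, blue lower in AAV-TuD, n = 6, than in AAV-NC, n = 5). The estimates run from -0.89 for Lpin1 to 1.51 for Ddit4l, and each list that holds a called gene holds at most 5.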

How the data were processed

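RNA of 5 AAV-NC and 6 AAV-TuD livers was read by QuantSeq 3′ libraries from 500 ng of total RNA. The authors deposited raw read counts per gene: reads were trimmed with BBDuk, aligned with STAR (2.5.3a, submitters' processing notes) to GRCm38 and counted with Rsubread. The annotation, strand setting and handling of multi-mapped reads are not given in the sources used here. All count columns matched a labelled liver.

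Counts were tested with edgeR 4.0.16 (R 4.3.3; TMM factors, glmQLFit and glmQLFTest, no covariate) on the 13334 genes whose reads exceeded 10 in 5 livers or more, with Benjamini-Hochberg adjustment over all of them and a threshold of 0.05. CPM used TMM-scaled library sizes. The study used DESeq2 on the same filter, which is an alternative here (version 1.42.0), beside limma-voom (3.58.1), other scaling, other filters, removal of the major urinary protein genes and each liver left out. Ratios of related members within a liver (pseudocount 0.5) were tested by a two-sided exact permutation test over all splits of the livers. Seed matches were counted in GENCODE M21 3′ UTRs. Within the last 300 bases of transcript, 0 members had another gene's transcript aligned over at least 200 bases at 95% identity or more (BLAST 2.17.0). Checked on simulated counts of the same livers, the test called 46.3% of 67 genes changed by 0.5 and 96.5% of 57 changed by 1 on the log2 scale, among genes with at least 50 reads, and 35% and 68% of all 100 genes changed by each size. In the real counts 1543 genes were called, many more than were changed in the simulation. The adjusted p depends on how many genes change, so these shares do not give the sensitivity of the real fit.

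The members and lists were chosen with earlier results of these data known. All members are named; of the other lists, up to 3 called genes with the smallest p in each direction are named, and Lpin1, the next, was named after its values were seen. A list symbol that the table spells otherwise was matched by gene identifier. Each liver was taken as 1 animal, after the study's group sizes. Batches are not given in the sources used here.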

Additional observations from a re-analysis of the deposited data

Results flagged for a closer look

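A liver stood apart from the other livers of its group in 10 of 94 groups of values examined, where the gap to the nearest liver, as a share of the range of the group, was above Dixon's 95% critical value. Chance gives about 1 in 20 such groups, and the cause was not tested for any of them.

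In AAV-NC, liver 6 was highest for Igf1r (9.41 CPM, the others 6.01 to 6.57, gap 0.836 of the range), Foxo1 (29.9 CPM, the others 23.5 to 25.3, gap 0.721) and Igfbp1 (32.4 CPM, the others 9.51 to 14.7, gap 0.774). AAV-NC liver 2 was highest for Mtor (10.7 CPM, the others 7.98 to 8.51, gap 0.805) and lowest for Rptor (5.41 CPM, the others 9.01 to 9.44, gap 0.894).

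In AAV-TuD, liver 10 was highest for Phlpp1 (10.3 CPM, the others 4.56 to 6.16, gap 0.724) and Gsk3b (94.5 CPM, the others 63.8 to 73.6, gap 0.680), lowest for Mapkap1 (17.6 CPM, the others 22.8 to 25.4, gap 0.672) and highest for the log2 ratio of Eif4ebp1 to Eif4ebp2 (-2.72, the others -3.37 to -3.19, gap 0.725). AAV-TuD liver 5 was lowest for Pik3cb (3.40 CPM, the others 5.65 to 6.93, gap 0.638).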

How the results depend on the processing

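With library size alone, 71 of all genes, 0 members and 0 other pathway genes fell, while 2 members and 13 other pathway genes rose; this scaling moved the median of all genes by 0.23 on the log2 scale. Inpp5d made 1 member rise with upper-quartile factors, DESeq2, limma-voom and without the urinary protein genes. With each liver left out in turn, 337 to 714 of all genes fell, 0 to 1 members rose and 0 to 4 fell, and 3 to 8 other pathway genes rose and 4 to 12 fell. Genes that fell were 337 without AAV-TuD liver 4 and 379 without liver 10. Members that fell were 4 without AAV-TuD liver 3, 0 without AAV-NC liver 8 and 1 without AAV-NC liver 1 or 6 or AAV-TuD liver 4, 10 or 11. Other pathway genes that rose were 3 without AAV-NC liver 1 or 7 or AAV-TuD liver 4, 5 or 9, and those that fell were 4 without AAV-NC liver 1 or AAV-TuD liver 4 and 5 without AAV-NC liver 2 or AAV-TuD liver 10. Fits with fewer livers have less power by construction, and Irs1 fell under the filter in 5 of them. The ratio of Eif4ebp1 to Eif4ebp2 kept its direction throughout (0.47 with a pseudocount of 5). No called value changed sign. Genes under about 20 reads a liver, such as Irs1 and Inpp5d, had intervals over 1 log2 unit wide. So did Igfbp1, Irs2, Grb10 and Pik3cd, which had more reads. No paired analysis was possible because the groups share no replicate number.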
